A study of Mus musculus with 8 samples.

Results

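The cytosolic ribosomal proteins were read from 102 probe sets, out of 45037 probe sets on the array without its controls, in liver of Pemt-/- and Pemt+/+ mice. A probe set was taken when the annotation of the array paired it with a single gene and that gene's symbol was Rpl or Rps followed directly by a digit. Symbols of pseudogenes, which hold the letters ps after the number, and the Rps6k kinases were left out. The rule gave 47 genes, of 18193 that were paired alone with a probe set, of which 24 were named for the large subunit (46 probe sets) and 23 for the small subunit (56 probe sets). Of these genes, 24 had 1 probe set and 23 had 2 or more, with at most 6 for Rpl35, Rps10, Rps18 and Rps24. A further 109 probe sets were paired with several genes that included a ribosomal protein gene and are not members.

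The 8 arrays held biotin-labelled cRNA from total RNA of liver, with 1 array per genotype after 1, 2, 3 and 4 weeks of a high fat-high sucrose (HFHS) diet, which both genotypes ate. Pemt-/- mice lack phosphatidylethanolamine N-methyltransferase, an enzyme that makes phosphatidylcholine in hepatocytes, and Pemt+/+ mice are wild type. The study's methods give male mice, 4 per genotype, and neither they nor the labels say whether an array held RNA of 1 mouse or of several, and no age was given for these arrays. Values are the deposited intensities, which the authors had scaled to a common array level. Arrays of different weeks serve as replicates. With the week in the model, a p-value of the genotype difference rests on the scatter of that difference among the weeks. This scatter holds both time and array, and the fit moderates it by the scatter of all probe sets tested.

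The cytosolic ribosome is built in the nucleolus and cytoplasm from ribosomal RNA and many proteins. Large subunit proteins (Rpl) surround the site where peptide bonds form and the tunnel through which the new chain leaves, and small subunit proteins (Rps) surround the mRNA and the site where codons are read. The mRNAs of these proteins start with a run of pyrimidines, the 5' terminal oligopyrimidine (TOP) sequence, through which mTOR sets how much of them is translated. Hepatocytes, which secrete most plasma proteins, are rich in ribosomes.

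Sequence around the start of transcription is shown for the 5 genes that had a probe set past the test described further on. These are genomic sequences of the RefSeq table of build GRCm38.p6, 5' to 3' on the strand of the gene, from 100 bases before the start to 15 bases after it. Capitals mark the letters CGGAAG or their reverse complement CTTCCG, the core of the sites bound by ETS family factors, and both strands were searched. The windows lie at chr7:24884492-24884606 on the + strand for Rps19 (the first of 3 starts listed), chr7:45128731-45128845 on the - strand for Rpl13a, chr17:33955651-33955765 on the - strand for Rps18, chr10:80292331-80292445 on the + strand for Rps15 and chr7:99483695-99483809 on the - strand for Rps3.
Rps19: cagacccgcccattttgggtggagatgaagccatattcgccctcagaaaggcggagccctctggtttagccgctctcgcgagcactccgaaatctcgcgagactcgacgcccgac
Rpl13a: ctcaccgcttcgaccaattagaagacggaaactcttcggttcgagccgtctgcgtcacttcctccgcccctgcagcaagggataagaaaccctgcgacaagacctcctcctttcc
Rps18: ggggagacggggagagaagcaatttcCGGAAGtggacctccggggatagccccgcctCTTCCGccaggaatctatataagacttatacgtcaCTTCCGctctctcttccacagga
Rps15: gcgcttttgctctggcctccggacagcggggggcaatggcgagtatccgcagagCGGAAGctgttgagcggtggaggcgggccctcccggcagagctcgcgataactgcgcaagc
Rps3: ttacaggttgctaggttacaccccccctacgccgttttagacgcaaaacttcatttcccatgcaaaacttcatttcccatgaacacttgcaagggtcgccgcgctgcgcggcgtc
Rps18 held 3 matches, Rps15 held 1, and Rps19, Rpl13a and Rps3 held 0 in these 115 bases. Over the whole windows of 300 bases, from 250 before to 50 after the start, 41 of the 47 genes had a window in the table, 49 windows in all. CGGAAG or CTTCCG stood in 30 of the 49 windows (61.2%), against 16.9% of all 32851 windows. A run of 8 or more pyrimidines (C or T) within 25 bases of the start stood in 22 of the 49 windows (44.9%), against 19.7% of all windows. The letters searched were chosen after such sequences had been looked at, and a match is a description of the window and not a bound site.

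The labels and the state of the tissue were read first. The intensity of Pemt itself was 224 ± 26.4 in the knockout and 5543 ± 437 in the wild type (SD, n = 4 each), 23.2-fold lower (limma, adjusted p = 5.00e-07). Hepatocyte markers were bright on every array, as the liver label implies, and their summed intensity ran from 490711 to 628711 in Pemt-/- and from 682777 to 739758 in Pemt+/+, with 10 of 11 genes lower (5 of 11 after quantile normalization). All 12 macrophage genes, all 10 genes of stellate cells and matrix and all 8 genes of proliferating cells that were tested were higher in Pemt-/-, with median log2 differences of 2.03, 1.58 and 2.84, and 1 of 5 lymphocyte genes was higher. Summed intensity ran from 32771 to 62482 against 13689 to 19322 for macrophage genes, from 44331 to 66722 against 15076 to 21340.2 for stellate and matrix genes, from 10120.3 to 23302 against 1541 to 2948 for proliferation genes and from 773 to 1156 against 368 to 489.9 for lymphocyte genes. None of these sums overlapped between the genotypes, and their part in the values below was not tested. In whole liver, fewer cells of a type and less RNA per cell cannot be told apart.

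The first question was whether the ribosomal protein mRNAs differed between the genotypes over the 4 weeks. On the deposited scale most differences were small, and another scaling, given further on, changed this. The median log2 difference (Pemt-/- minus Pemt+/+) of the 93 probe sets tested was 0.00, with 47 above 0 and 46 below, and 77 of them (82.8%) lay within 0.25 log2 of 0, against 49.2% of all 27022 probe sets tested. The middle 50% of the members ran from -0.09 to 0.13 and that of all probe sets tested from -0.23 to 0.29. Most members were bright, and the median SE of their differences was 0.090, against 0.176 over all tested. Within 0.25 log2 of 0 lay 95.1% of the 61 members with a mean log2 value above 13 and 59.4% of the 32 dimmer ones. Among other probe sets above 13, paired with no gene that the symbol rule takes, it was 37.7%. The fit was limma on log2(intensity + 16) with the week as a factor, and an adjusted p under 0.05 (Benjamini-Hochberg over the 27022 probe sets) was the threshold. Of the 93 probe sets, 3 were higher in Pemt-/- and 2 were lower, where 10.3% of all probe sets tested were higher and 5.86% were lower. At an unadjusted p under 0.05 there were 23, where 31.1% of all probe sets tested passed. The 95% interval of the difference lay within 1.5-fold either way for 75 of the 93 and within 2-fold for 90, on the deposited scale.

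The other 9 of the 102 probe sets were too dim for the test, because their mean log2 value lay under the 40th percentile of all probe sets. They belonged to Rps18 (3 probe sets), Rpl27a, Rps4x, Rps6, Rps16, Rpl39l and Rpl3l. Rps16, Rpl39l and Rpl3l had no other probe set, so 44 of the 47 genes were tested.

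**Figure D1:**
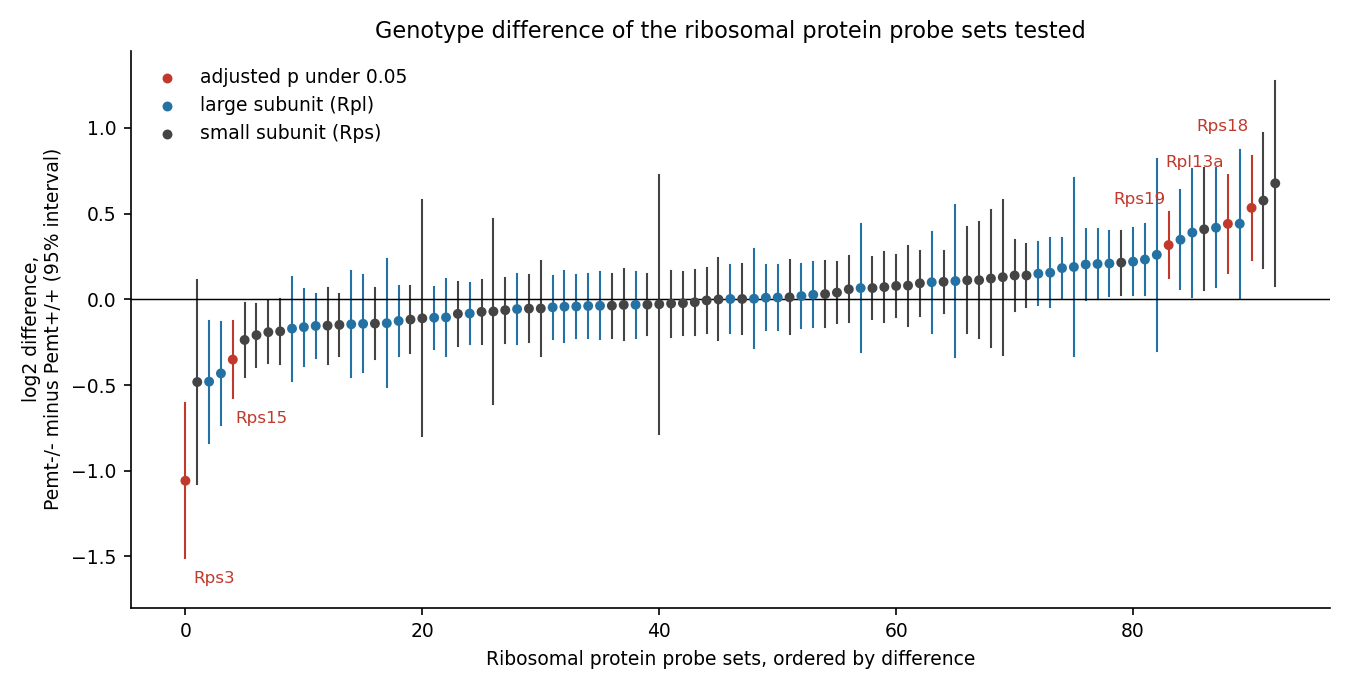
Fitted log2 difference (Pemt-/- minus Pemt+/+, n = 4 arrays each) of the 93 ribosomal protein probe sets tested, ordered by size, with 95% intervals as vertical lines and 1 point per probe set. Red marks the 5 with an adjusted p under 0.05, Rps3 and Rps15 below 0 and Rps19, Rpl13a and Rps18 above, and 77 of the points lie within 0.25 of 0.

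Both subunits had medians near 0. The 43 tested probe sets of the large subunit had a median difference of 0.01, with 1 higher and 0 lower. The 50 with Rps symbols, which include the probe set of Rps19bp1, not a subunit, had a median of -0.01, with 2 higher and 2 lower. The 102 tested probe sets paired with several genes that included a ribosomal protein gene had a median of 0.01, with 5 higher and 3 lower. In these 3 groups 2.33%, 8.0% and 7.84% passed in either direction, against 16.2% of all probe sets tested. Of the cytosolic ribosomal proteins whose symbols the rule passes over, 4 had a probe set paired with them alone, and 0 of the 4 passed the test of limma, or an unadjusted p under 0.05. The stalk protein Rplp2 differed by 0.15 ± 0.079 (log2 difference ± SE, limma, adjusted p = 0.242). Rpsa, a small subunit protein also called the laminin receptor, differed by 0.13 ± 0.083, and the stalk base Rplp0 by 0.01 ± 0.083. Fau, a small subunit protein made as a fusion with a ubiquitin-like domain, differed by -0.08 ± 0.103.

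Rps19, read by 1 probe set, was higher in Pemt-/- in each week. It encodes a protein of the small subunit needed to mature 18S rRNA, and loss of 1 copy of the gene can cause Diamond-Blackfan anaemia in humans. Its intensity was 12794, 11430.1, 11905 and 11870.4 in Pemt-/- at weeks 1 to 4 and 9468, 9312, 9284 and 10494 in Pemt+/+. Each Pemt-/- array lay above each Pemt+/+ array. The log2 difference was 0.32 ± 0.085 (SE, limma, adjusted p = 0.0371). It no longer passed without the arrays of week 1 (adjusted p = 0.115), week 3 (0.183) or week 4 (0.0873), nor when arrays were centred on the median of all probe sets (0.0561) or of those tested (0.305). Without week 1, week 3 or week 4, 10.6%, 6.73% and 7.55% of all probe sets tested passed, against 16.2% with all arrays.

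Rpl13a, a large subunit protein that is also released to silence inflammatory mRNAs, had 4 probe sets, and 1 of them was higher. That probe set (1433928_a_at) measured 4902, 4209, 4983 and 6423 in Pemt-/- and 3574, 4177, 3469 and 3749 in Pemt+/+, so the groups did not overlap but were close at week 2. The log2 difference was 0.44 ± 0.125 (SE, limma, adjusted p = 0.0457), and 0.124, 0.174 and 0.200 were the adjusted p without week 1, week 3 and week 4. The other probe sets of Rpl13a differed by 0.35, 0.03 and -0.11.

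Rps18, a protein of the head of the small subunit, had 3 probe sets bright enough to test, and they did not move together. The probe set 1455572_x_at measured 21362, 24372, 22459 and 22755 in Pemt-/- and 21724, 15107, 13645 and 13531 in Pemt+/+. The genotypes were level at week 1, and from week 2 the Pemt+/+ arrays lay lower. Its log2 difference was 0.53 ± 0.134 (SE, limma, adjusted p = 0.0287), and it did not pass without week 2 (0.0598), week 3 (0.139) or week 4 (0.121). The probe set 1435712_a_at measured 15114, 15929, 14177 and 14562 in Pemt-/- and 16102, 17000.0, 17380.5 and 17560.0 in Pemt+/+, with each Pemt-/- array below each Pemt+/+ array and a difference of -0.19 (adjusted p = 0.169). Probe sets ending in _x_at hold probes that can also match other sequences, and the share of their signal that comes from Rps18 was not tested.

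Rps15, a small subunit protein used in the export of new subunits from the nucleus, was lower at 1 of its 2 probe sets. The probe set 1416089_at measured 10447, 12354, 11016 and 9607 in Pemt-/- and 12612, 13879, 13842 and 14965 in Pemt+/+, without overlap. The log2 difference was -0.35 ± 0.099 (SE, limma, adjusted p = 0.0428), and the other probe set differed by -0.03. The adjusted p was 0.0920, 0.158 and 0.210 without week 1, week 3 and week 4, and 0.208 after quantile normalization, where the difference was -0.17.

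Rps3, a small subunit protein at the mRNA entry that also takes part in DNA repair, had the lowest difference of all members, at a dim probe set. The probe set 1447563_at measured 54.2, 74.3, 64.8 and 56.4 in Pemt-/- and 134, 144, 167 and 143 in Pemt+/+. Its log2 difference was -1.06 ± 0.198 (SE, limma, adjusted p = 0.00909), and without week 3 its adjusted p was 0.0505. The bright probe set of Rps3 measured 12933, 11843, 11214 and 11146 in Pemt-/- and 10362, 10956, 9921 and 11557 in Pemt+/+, with overlap and a difference of 0.14 (adjusted p = 0.342), and the third differed by 0.11. The lower value of Rps3 was therefore seen at 1 of 3 probe sets.

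**Figure D2:**
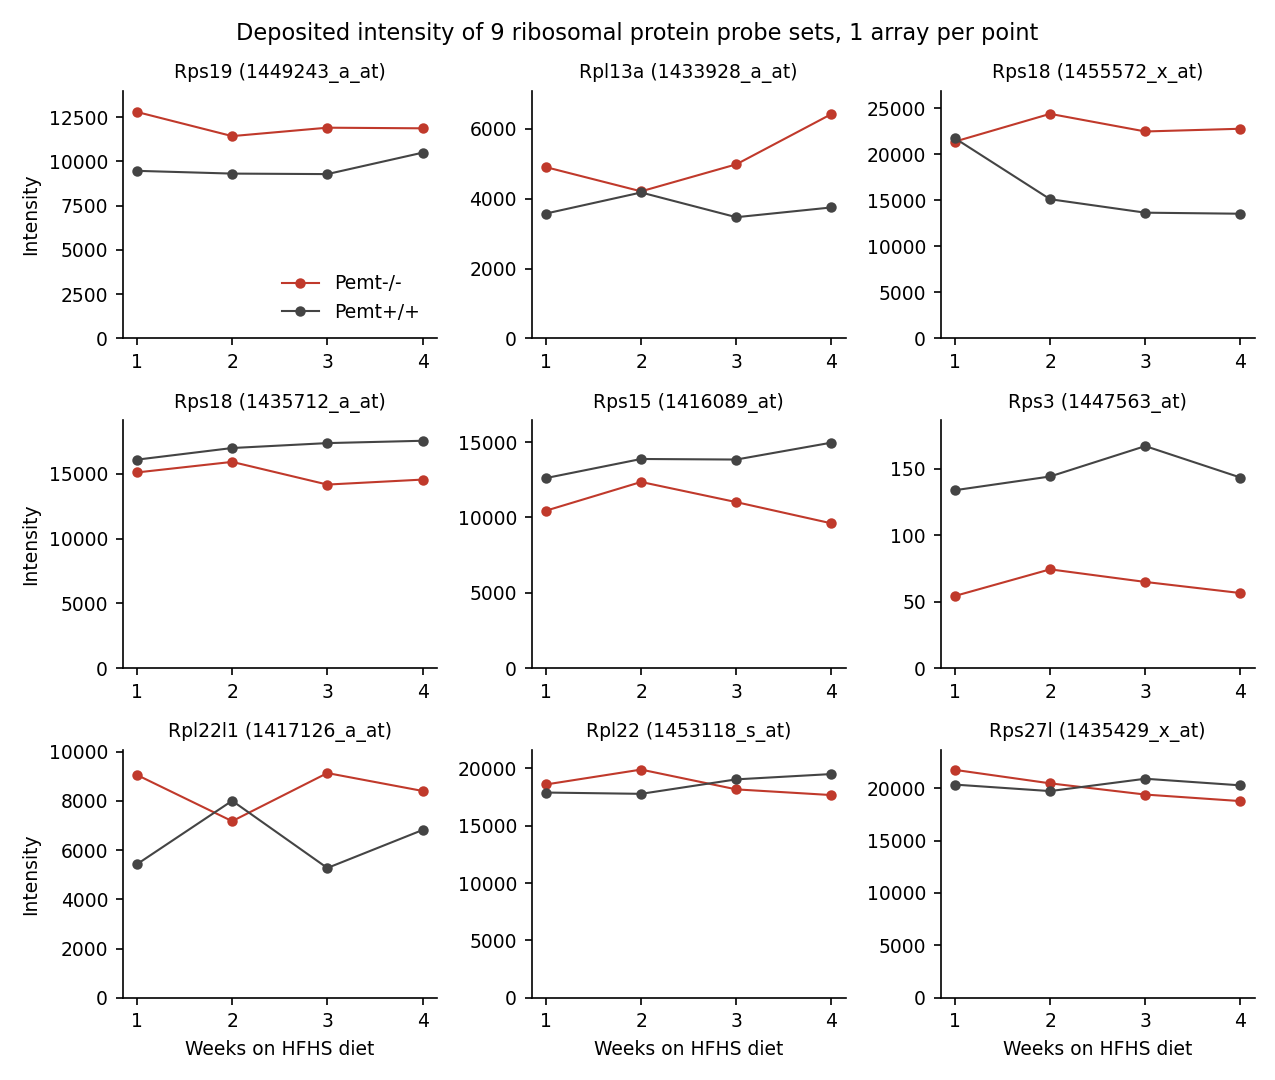
Deposited intensity (linear scale from 0) against weeks on the HFHS diet for 9 ribosomal protein probe sets, red for Pemt-/- and grey for Pemt+/+, with 1 array per point and no error bar. Rps19 is separate in all weeks, Rps18 1455572_x_at from week 2 on, and the bright probe sets of Rpl22 and Rps27l cross between weeks.

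Probe sets of the same gene did not always give the same value. Over the 20 genes with 2 or more tested probe sets, the range of the fitted difference had a median of 0.23, beside 0.32 over all 5824 genes with 2 or more. Of the 20, 12 (60%) had probe sets on both sides of 0, against 42.0% of the 5824. After Rps3, the widest ranges were those of Rps9 (from -0.24 to 0.68), Rps18 (from -0.19 to 0.53), Rps10 (from -0.09 to 0.58), Rps24 (from -0.48 to 0.12) and Rpl13a (from -0.11 to 0.44). Rps10 and Rps24 are small subunit proteins, and mutations of either can cause Diamond-Blackfan anaemia. The highest value of Rps9, a protein near the mRNA channel, came from the dim probe set 1426958_at, at 189, 77.7, 147 and 159 in Pemt-/- and 59.0, 83.5, 79.7 and 101 in Pemt+/+. That was the highest fitted difference of all members, 0.68 ± 0.263, and it did not pass the test (adjusted p = 0.118). The highest value of Rps10 (1439374_x_at, adjusted p = 0.0548) rested most on week 4, with 10055 against 3925, where its weekly difference was 1.35 after 0.31, 0.28 and 0.36 in weeks 1 to 3. The lowest value of Rps24 came from 1436500_at, at 31.1, 39.8, 90.9 and 50.3 in Pemt-/- and 72.5, 49.8, 95.7 and 93.1 in Pemt+/+ (-0.48 ± 0.262, adjusted p = 0.252).

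In other genes the probe sets gave nearly the same value. All 6 of Rpl35, a protein beside the exit of the tunnel, lay between 0.15 and 0.26, and 0 of the 6 passed the test of limma, with 4 at an unadjusted p under 0.05. The 0.26 came from the dim probe set 1454833_at, with an SE of 0.246 and weekly differences of 0.28, 0.74, 0.08 and -0.06. The bright ones lay between 0.15 and 0.23. The probe set 1455950_x_at of Rpl35 measured 16240.4, 17279.8, 17673 and 19522 in Pemt-/- and 15499.7, 15737, 15244 and 14698 in Pemt+/+, without overlap (adjusted p = 0.153). The 3 probe sets of Rps28 lay between -0.04 and -0.01, the 3 of Rps29 between -0.21 and -0.12 and the 2 of Rps7 at 0.03 and 0.06. All probe sets of Rps29 and most of those of Rpl35 and Rps28 end in _x_at, as do 38 of the 93 tested members. Whether such probe sets are separate readings of the gene was not tested. The third lowest difference of all members was that of Rpl37a 1416218_x_at, with 779, 649.7, 633 and 425 in Pemt-/- and 791, 803, 1066 and 785 in Pemt+/+ (-0.48 ± 0.156, adjusted p = 0.0705), while both bright probe sets of Rpl37a lay within 0.05 of 0.

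**Figure D3:**
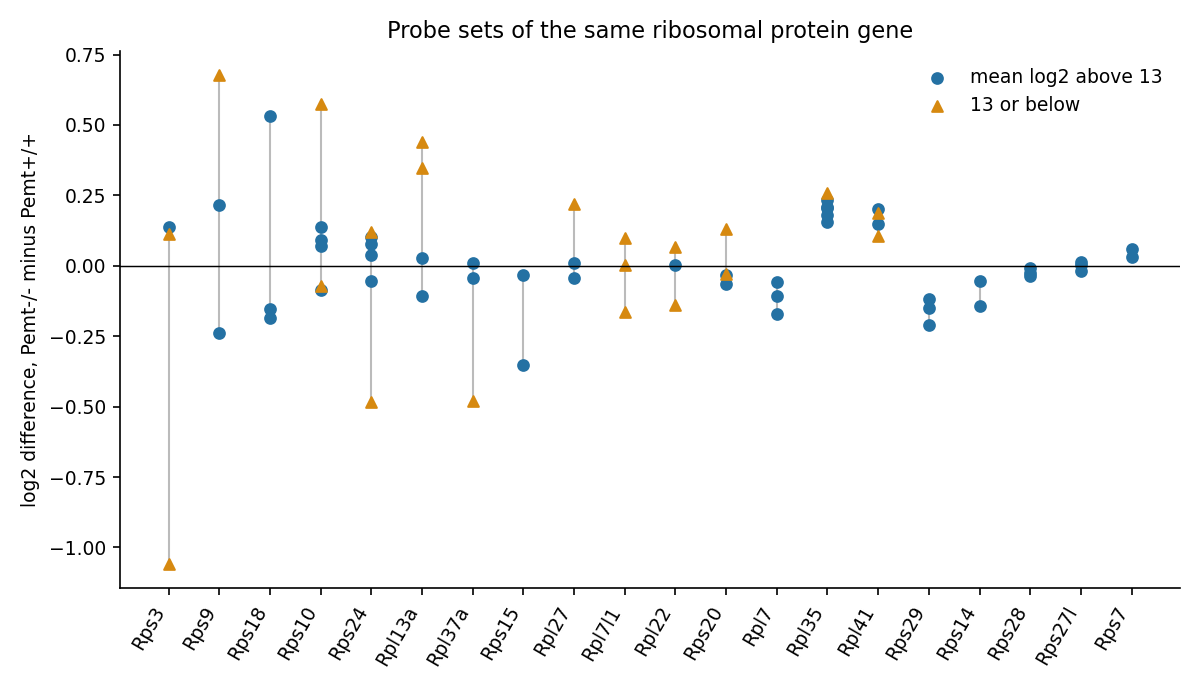
Fitted log2 difference (Pemt-/- minus Pemt+/+) of each tested probe set of the 20 ribosomal protein genes with 2 or more, ordered from the widest range to the narrowest, with circles for a mean log2(intensity + 16) above 13 and triangles for 13 or below. In Rps3, Rps9, Rps10, Rps24 and Rpl37a the point farthest from 0 is a triangle, and in Rps18 and Rps15 it is a circle.

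Some ribosomal proteins have a second gene that can take the place of the first, and these variant genes were looked at beside their parents. Rpl22l1, the variant of the large subunit protein Rpl22, measured 9052, 7175, 9129 and 8403 in Pemt-/- and 5426, 8004, 5273 and 6815 in Pemt+/+. It was higher at weeks 1, 3 and 4 and lower at week 2, and its difference of 0.42 ± 0.153 did not pass (limma, adjusted p = 0.0995). The 3 probe sets of Rpl22 differed by 0.07, -0.14 and 0.00. Rps27l, the variant of Rps27 and a target of p53, lay at -0.02, 0.00 and 0.01 at its 3 probe sets. In that order their mean intensity in Pemt-/- was 20080, 17312 and 17387. The probe sets 1435429_x_at and 1423254_x_at can also match other sequences, and the share of their signal that comes from Rps27l was not tested. Rps27 had 1 dim probe set, at 547, 435, 253 and 181 in Pemt-/- and 216, 629, 445 and 250.4 in Pemt+/+. Its weekly differences ran over 2.05 log2, more than those of any other tested member, and the fitted difference was -0.11 ± 0.303. Rpl7l1, a variant of Rpl7 placed on early large subunit precursors, lay at -0.16, 0.00 and 0.10, and the 3 probe sets of Rpl7 at -0.06, -0.11 and -0.17. Rps4l differed by 0.11 ± 0.136.

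Rpl39, a small protein inside the exit tunnel, measured 369, 329, 377 and 332 in Pemt-/- and 464, 542, 464 and 453 in Pemt+/+, and each Pemt-/- array lay below each Pemt+/+ array. Its difference of -0.43 ± 0.132 missed the threshold (limma, adjusted p = 0.0569). Its variant Rpl39l, known from testis, was dim, at 23.9, 23.1, 30.7 and 54.4 in Pemt-/- and 1.48, 23.4, 28.2 and 7.63 in Pemt+/+, and so was the striated muscle variant Rpl3l, at 3.21 to 7.57 and 3.81 to 29.1. Neither was tested. The rule also took Rps19bp1, which is not a subunit but a nucleolar protein that binds Rps19. Its intensity was 943 ± 38.1 in the knockout and 944 ± 41.2 in the wild type (SD, n = 4 each).

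The second question was how the comparison ran in each week and whether it changed over the weeks. The median difference of the 93 probe sets was 0.09 at week 1, 0.01 at week 2, -0.05 at week 3 and -0.05 at week 4, and 59, 49, 42 and 38 of them lay above 0. Over all probe sets tested the medians were 0.05, -0.01, 0.02 and 0.04. The Pemt-/- array of week 2 stood apart from the rest, with a median intensity of 73.8, where the other arrays ran from 78.2 to 81.3. Hepatocyte markers had median differences of -0.43, -0.21, -0.63 and -0.64 at weeks 1 to 4. What sets that array apart was not tested. Each week has 1 array per genotype, so the weekly values have no replicate check. The difference in change per week, fitted with the week as a number in each genotype, passed in 0 of the 93, as in 0 of all 27022 (0%). At an unadjusted p under 0.05 it was 4 of 93 (4.30%), against 6.73% of all. The median of the difference in change was -0.04 log2 per week, with 65 of 93 below 0, and over all probe sets tested it was 0.01. Among probe sets above a mean log2 value of 13 that were paired with no gene of the symbol rule it was -0.05 (626 of 931 below 0). Among the 32 dimmer members the median was -0.002 (16 below 0). After quantile normalization the median of the members was -0.01, with 54 of 93 below 0.

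The 4 members with the smallest p for the change were Rpl22 1416603_at, Rps18 1455572_x_at, Rpl7 1426163_x_at and Rpl37a 1416218_x_at. Rpl22 1416603_at went from 7974 to 6614, 6054 and 6245 in Pemt-/- and from 4740.2 to 6425, 6941 and 7863 in Pemt+/+, so that the knockout was the higher at week 1 and the lower at weeks 3 and 4. The difference in change was -0.35 ± 0.079 log2 per week (SE, limma, adjusted p = 0.527). The bright probe set of Rpl22 gave -0.08 ± 0.066 and the third probe set 0.19 ± 0.133. Rpl7 1426163_x_at stood apart at week 4, with 6552 in Pemt-/- against 10632 in Pemt+/+, and its difference in change was -0.23 ± 0.087 log2 per week (adjusted p = 0.687).

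Large weekly ratios were few. A ratio of Pemt-/- to Pemt+/+ of 2 or more, or of 0.5 or less, was found in 4 of the 93 tested members at week 1, 1 at week 2, 1 at week 3 and 4 at week 4, where all probe sets tested gave 11.6%, 12.2%, 15.4% and 16.1%. Rps3 1447563_at was among them in weeks 1, 3 and 4, at 0.406, 0.388 and 0.394. The others were Rps9 1426958_at (3.20), Rps27 (2.53) and Rps24 1436500_at (0.429) at week 1, Rps20 1450417_a_at at week 2 (0.488) and again at week 4 (2.66), and Rps10 1439374_x_at (2.56) and Rpl41 1433530_at (2.04) at week 4. Rps20 1450417_a_at lay at 46.6, 42.2, 85.8 and 113 in Pemt-/- and 62.9, 86.5, 93.5 and 42.5 in Pemt+/+, so its ratio turned between weeks, while the bright probe sets of Rps20 differed by -0.03 and -0.06. Of the 93, 29 (31.2%) kept 1 sign through the 4 weeks, against 37.8% of all. The arrays of the genotypes did not overlap for 14 with Pemt-/- above and 6 with Pemt-/- below, where 12.8% and 8.96% of all probe sets tested did not overlap in these directions.

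Ribosomal protein mRNAs are among the brightest on the array, and the other bright probe sets differed. Above a mean log2 value of 13, a limit chosen after the values had been seen, lay 61 members and 931 probe sets paired with no gene that the symbol rule takes. Ribosomal proteins whose symbols the rule passes over, such as Rplp0, were not taken out of these other bright probe sets. The members there had a median difference of -0.03, with 2 higher and 1 lower, and 58 of them lay within 0.25 log2 of 0. The other bright probe sets had a median of -0.29, with 4.94% higher and 43.3% lower, among them the albumin mRNA of the hepatocyte list (-0.32, adjusted p = 0.0442). The members took 3.33%, 3.24%, 3.24% and 3.30% of the summed intensity of the Pemt-/- arrays at weeks 1 to 4, and 2.98%, 3.03%, 2.98% and 3.13% of that of the Pemt+/+ arrays, which do not overlap. Their summed intensity did overlap, at 1.21e+06 to 1.28e+06 in Pemt-/- and 1.20e+06 to 1.27e+06 in Pemt+/+, while the total of the array was 3.69e+07 to 3.96e+07 in Pemt-/- and 4.04e+07 to 4.15e+07 in Pemt+/+. The other bright probe sets took 37.5% to 42.5% in Pemt-/- and 43.9% to 45.2% in Pemt+/+.

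**Figure D4:**
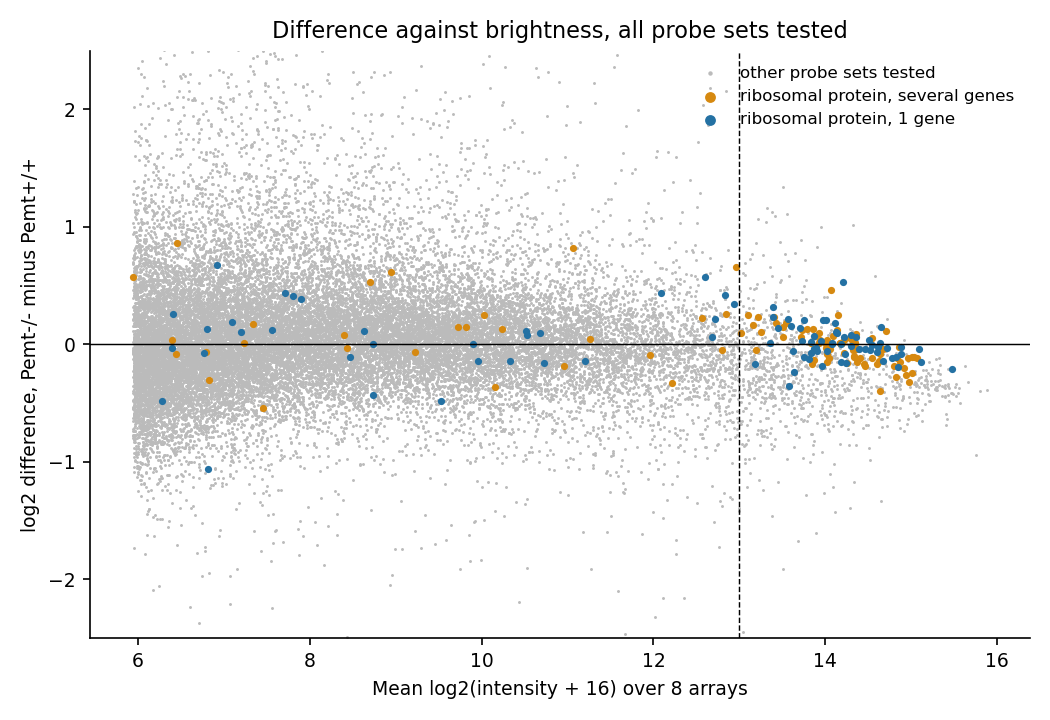
Fitted log2 difference (Pemt-/- minus Pemt+/+) against mean log2(intensity + 16) over the 8 arrays for all 27022 probe sets tested, with ribosomal protein probe sets paired with 1 gene in blue and with several in orange. The dashed line is at 13, to the right of which the 61 blue points have a median of -0.03 and the 931 grey points one of -0.29. The axis leaves out 101 probe sets beyond 2.5 either way, with 0 ribosomal proteins among them.

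The direction of the members therefore depended on what each array was scaled to. With arrays centred on the median of all probe sets, 3 members were higher and 1 lower (10.9% and 4.88% of all tested), with a median difference of 0.01. After quantile normalization 30 probe sets of 17 genes were higher and 3 lower (8.64% and 6.41% of all tested), with a median of 0.21. Of the 93, 76 then lay above 0 and 59.1% lay within 0.25 log2 of 0, beside 61.7% of the other bright probe sets. With arrays centred on the median of the tested probe sets, 0 were higher and 5 lower (7.32% and 12.1% of all tested), with a median of -0.16. An unadjusted p under 0.05 was then found in 23 members and in 35% of all tested. The other bright probe sets had medians of -0.28, -0.04 and -0.45 under these 3 scalings. The last 2 scalings placed the median of all tested probe sets at -0.03 and -0.14, against 0.02 as deposited. Centring moves all probe sets of an array alike, so it leaves the gaps between these medians as they were on the deposited scale, where the median of the members lay -0.02 from that of all tested probe sets. After quantile normalization, which can change the gaps, the median of the members lay 0.24 above that of all tested probe sets. Which scale holds the mRNA per cell was not tested.

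**Figure D5:**
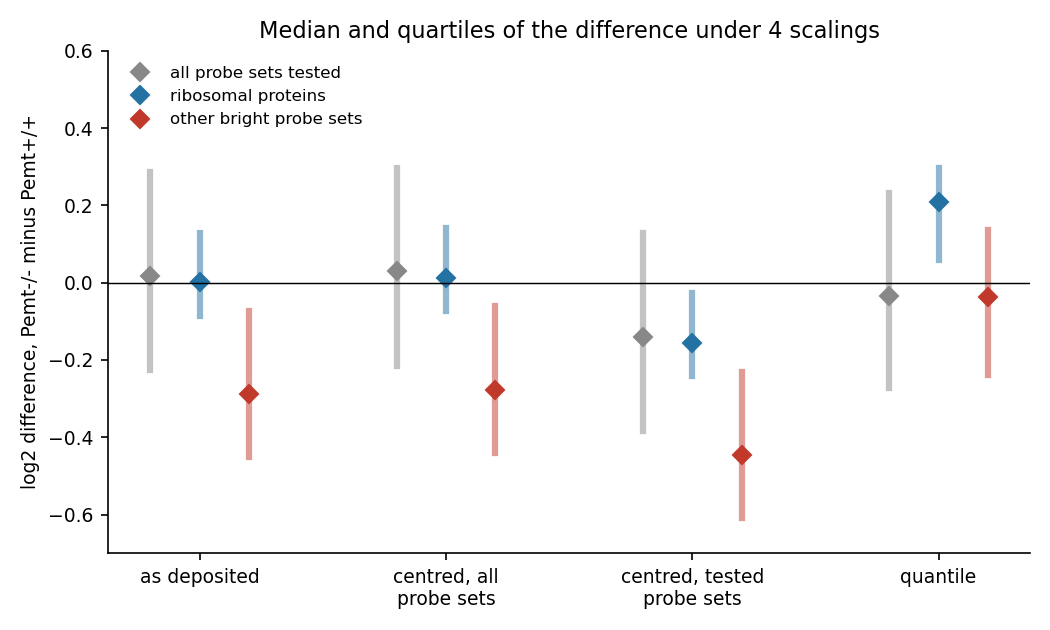
Median (diamond) and quartiles (bar) of the log2 difference (Pemt-/- minus Pemt+/+) under 4 scalings of the arrays, for all 27022 probe sets tested, the 93 ribosomal protein probe sets and the 931 other bright probe sets. The ribosomal proteins lie at 0.00, 0.01, -0.16 and 0.21 from left to right, and the other bright probe sets at -0.29, -0.28, -0.45 and -0.04. Centring by construction leaves the gaps between the 3 groups as deposited.

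The array also carries control probe sets for 18S rRNA, the RNA of the small subunit. They were lower in Pemt-/- at all 3 positions, by 0.74, 0.98 and 1.01 on the log2 scale for the 5' end, the middle and the 3' end. The 5' probe set measured 19472, 27103, 24831 and 23761 in Pemt-/- and 37499, 39363, 42570 and 38856 in Pemt+/+, without overlap (two-sided exact permutation test, p = 0.0286, the smallest that 4 against 4 arrays allow, n = 4 each). Unlike the fits, this permutation test left out the week. Of all probe sets tested, 8.96% had no overlap with Pemt-/- below and 12.8% with Pemt-/- above. rRNA has no poly(A) tail, and what an array of this labelling reads of it was not tested. The ratio of the 3' to the 5' probe set was 2.43 ± 0.268 (SD, n = 4) in Pemt-/- and 2.38 ± 0.066 in Pemt+/+ for Actb, and 1.02 ± 0.170 and 0.984 ± 0.032 for Gapdh and these ratios overlapped between the genotypes.

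The genes that make and run ribosomes were set beside the proteins of the ribosome, each by its brightest probe set. Of all probe sets tested, 10.3% were higher and 5.86% lower. With 1 probe set per gene in the fit, 21.6% of all passed in either direction. Of 46 genes of ribosome assembly and RNA polymerase I, 4 were higher and 1 was lower, with a median difference of 0.11. Those higher were the box C/D particle protein Nop58 (0.77 ± 0.153, limma, adjusted p = 0.0115), Gar1 and Nhp2, which belong to the box H/ACA particles that turn uridine of rRNA into pseudouridine (0.51 and 0.48), and Ltv1, a factor of small subunit maturation (0.45). Nop16, a nucleolar protein of large subunit assembly, was lower (-0.56). Of 17 initiation factors, 2 were higher and 2 were lower, with a median of -0.01. Eif6, which keeps the large subunit from joining too early, was the highest (0.86 ± 0.122, adjusted p = 0.00294), Eif3a was higher by 0.39, and Eif4a2 and Eif2s2 were lower, by -0.40 and -0.35. Of 15 elongation factors and other TOP mRNAs, Eif3f was higher (0.39) and Tpt1, a classical TOP mRNA, was lower (-0.37), with a median of -0.07.

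Of 76 mitochondrial ribosomal proteins, which serve the separate ribosomes of mitochondria, 3 were higher and 6 lower, with a median of -0.09. The shares of all probe sets tested were 10.3% and 5.86%. Mrpl52 (0.84), Mrps28 (0.57) and Mrpl33 (0.52) were higher, and Mrpl24 (-0.39) had the smallest adjusted p of those lower. Of 13 regulators of ribosomal protein synthesis, 1 was higher. This was Myc, a transcription factor that drives ribosome production, at 423 ± 351 (SD, n = 4) in Pemt-/- and 95.4 ± 58.3 in Pemt+/+, a log2 difference of 1.89 ± 0.286 (limma, adjusted p = 0.00378), above 0 in each of the 4 weeks. All 21 genes of these lists that passed kept their sign under the 3 other scalings, and 18, 16 and 16 of them passed with arrays centred on all probe sets, centred on the tested ones and quantile normalized. Tpt1 (-0.04), Ltv1, Eif4a2, Eif2s2 and Mrpl39 did not pass after quantile normalization, and Gar1, Nhp2, Ltv1, Eif3f and Eif3a did not pass with arrays centred on the tested probe sets. With arrays centred on all probe sets, Tpt1, Eif2s2 and Mrpl47 did not pass.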

How the data were processed

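Affymetrix arrays of liver RNA from 4 Pemt-/- and 4 Pemt+/+ samples, 1 per genotype at each of 4 diet weeks, were used. The authors deposited 1 intensity per probe set, on a linear scale, per the submitters' notes with Affymetrix Expression Console (version and summarisation method: not given in the sources used here). Arrays had equal trimmed means, 2% trimmed at either end, and 64 control probe sets were left out of the fits. Grouping followed the genotype and week in the labels. The members, gene lists and letters searched were chosen with earlier results of these data known.

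Values were transformed as log2(intensity + 16), so differences of dim probe sets are understated. Probe sets with a mean above the 40th percentile were kept (27022). limma 3.58.1 in R 4.3.3 (lmFit, eBayes with trend) fitted the genotype with the week as a factor, and the change per week in each genotype, with two-sided tests adjusted by Benjamini-Hochberg. The script of the fits was tested on simulated data. SE is that of the fit. SD is over the 4 arrays of a genotype and holds the change between weeks. All 102 member probe sets matched RefSeq (GRCm38.p6) by Entrez identifier, which also gave start sequences. Protein sequences were not used here.

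Named were Pemt, up to 10 members past the threshold in each direction with 1 direction in all weeks, the 3 highest and 3 lowest, variant genes and their parents, up to 6 genes whose probe sets disagreed most, the 6 members of widest weekly range, the 4 with the smallest p for the change, members that are no subunit, ribosomal proteins outside the symbol rule and up to 4 genes per other list. Rpl35, Rps28, Rps29, Rps7 and the second probe sets were chosen after their values were seen. Alternatives were other scalings, pseudocounts of 1 and 64, other filters, no trend, no week in the model, leaving out each week, 1 probe set or the mean per gene, no _x_at or _s_at probe sets, and the methods' t-test. The number of arrays limits the precision. The labels tie samples of the same week by diet time, and whether they share more is not known. The correlation of their deviations from the group means was 0.105, -0.0198, -0.0289 and 0.113 in weeks 1 to 4.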

Additional observations from a re-analysis of the deposited data

Results flagged for a closer look

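The 18S rRNA control probe sets, which no comparison of the study uses, differed between the genotypes by -0.74 at the 5' end, -0.98 in the middle and -1.01 at the 3' end (log2, Pemt-/- minus Pemt+/+).

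Among 94 groups of 4 arrays of the named members, 7 held an array far from the other 3. Chance gives about 1 in 20 in groups taken at random, a rate that does not apply here, because some of these members were named for a wide range of weekly differences. These were Rps19 in Pemt+/+ at week 4 (10494), Rpl37a 1416218_x_at in Pemt+/+ at week 3 (1066), Rps27l 1423254_x_at in Pemt+/+ at week 3 (17734), Rpl7 1415979_x_at in Pemt-/- at week 1 (17328), Rpl39 in Pemt+/+ at week 2 (542), Rps10 1416719_a_at in Pemt+/+ at week 4 (15910.3) and Rps24 1453362_x_at in Pemt-/- at week 2 (21356). The week and the array cannot be told apart, because each week has 1 array per genotype.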

How the results depend on the processing

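Of the 3 higher and 2 lower members, quantile normalization gave 30 higher, and centring on the tested probe sets, which was chosen after seeing the data, gave 0 higher and 5 lower. Of the 5 in the reported fit, 4 passed after quantile normalization and 2 after centring on the tested probe sets. Centring on all probe sets gave 1 lower. Without a filter there were 0 higher and 1 lower, and likewise without the eBayes trend. Of all probe sets, 7.76% then passed without a filter and 8.69% without the trend, against 16.2% in the reported fit. With 1 probe set per gene 1 was lower, and with the mean of the probe sets of a gene 1 was higher and 1 lower. The methods' t-test at its unadjusted threshold gave 17 higher and 10 lower (29.1% of all probe sets tested passed it). After Benjamini-Hochberg it gave 2 higher and 2 lower (9.29% of all passed), and 2 of these, Rps19 and Rps3, were shared with the reported fit. Leaving out 1 week at a time gave 0 to 7 higher and 0 to 3 lower. With week 3 left out 0 passed (6.73% of all tested), and with week 2 left out 10 passed (17.7%), 4 of them shared with the full data. With week 1 left out 3 passed (10.6% of all tested), 2 shared, and with week 4 left out 1 passed (7.55%), also shared. In the paired analysis the week was the block of the reported values, and without this block 3 were higher and 3 lower, with all 5 shared and Rpl39 added.

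The median of the members moved from 0.00 to 0.21 by quantile normalization and -0.16 by centring on the tested probe sets. Its weekly values moved to 0.27, 0.10, 0.22 and 0.19 by quantile normalization, to -0.093, -0.24 and -0.26 at weeks 1, 3 and 4 by centring on the tested probe sets, to 0.11 at week 2 by centring on all, and to 0.012 at week 1 with 1 probe set per gene. By quantile normalization and centring on the tested probe sets, the median was -0.0090 and -0.049 for the assembly list, 0.33 and -0.087 for the ribosomal proteins outside the symbol rule, 0.081 and -0.23 for elongation and TOP genes, and 0.047 and -0.17 for initiation factors. Centring on the tested probe sets gave -0.24 for mitochondrial ribosomal proteins and -0.16 for regulators, quantile normalization gave -0.15 for hepatocyte markers, and a pseudocount of 64 gave 0.45 for lymphocyte markers. Leaving out 1 week at a time, the medians ran from -0.13 to -0.0093 for elongation and TOP genes, from -0.073 to 0.0065 for initiation factors and from -0.064 to 0.070 for regulators. The difference in change per week passed in 0 members under every alternative run for it. The cause of these changes was not tested.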
